A study of Mus musculus with 6 samples.

Results

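The Slam family receptors are immunoglobulin-like surface proteins of blood cells, and 8 of their genes, Slamf1, Slamf6, Slamf7, Slamf8, Slamf9, Ly9, Cd48 and Cd84, were followed here among 19938 genes measured on the array. They were chosen by the log2 differences between Cre-ERT2 and ERT2 cells described below, as paralogs that lie near each other on mouse chromosome 1 and respond differently. Their differences are therefore given as a description, and nothing is concluded from a test of them. Each of the 8 genes is read by 1 probe set that maps to no other gene.

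Most Slam receptors bind a copy of themselves on a neighbouring cell. Cd48 does not: it is held in the membrane by a lipid anchor and serves as a ligand of Cd244a (2B4) and of Cd2. Tyrosine motifs in the tails of Slamf1, Slamf6, Slamf7, Ly9, Cd84 and Cd244a recruit small SH2 adaptors (SAP and EAT-2), which couple them to the kinase FYN and other effectors or keep phosphatases away. In lymphocytes the family is known for help between T and B cells and for the development of innate-like lymphocytes, and Slamf1 with Cd48 is used to sort blood stem cells.

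All samples were mouse pre-B cells carrying BCR-ABL1, the fusion kinase of Philadelphia chromosome-positive leukaemia, from 5-week-old mice of a 129SvEv x C57BL/6J background with both Sox4 alleles floxed (Sox4fl/fl). Cells of 3 samples were transduced with ERT2 alone, an oestrogen receptor domain without Cre, and cells of the other 3 with Cre-ERT2, the recombinase that 4OHT (4-hydroxytamoxifen) activates. Total RNA was taken 24 h after 4OHT, 1 array per sample, to learn the role of Sox4 in such cells. No group combined Cre-ERT2 with unfloxed Sox4, so Sox4 loss and Cre activity cannot be told apart. The time after 4OHT is given as 24 h for every sample, ERT2 samples included, but the labels do not state outright that the ERT2 cells received 4OHT. If they did not, an effect of 4OHT itself cannot be told apart from Sox4 loss or Cre activity. Also, separate cultures are not stated for samples of the same group, so errors and p-values reflect the spread among these samples alone, possibly technical.

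Array medians lay between 273 and 279 intensity units, and precision is limited by having 3 arrays per group. Sox4 read 1459, 1372 and 1237 in ERT2 and 599, 541 and 499 in Cre-ERT2 arrays (log2 difference -1.31, SE 0.0912, limma adjusted p = 0.000434; exact two-sided permutation p = 0.1, the smallest that 3 against 3 samples allow). The ERT2 sample numbered 2 stood farthest from its own group: the SD of its log2 difference to each other control averaged 0.236, and the same figure for the other 5 arrays lay between 0.183 and 0.213. The pre-B cell label was checked against 9 markers, Cd79a, Cd79b, Vpreb1, Igll1, Pax5, Ebf1, Blnk, Rag1 and Cd24a. All 9 had a mean intensity above the array median, and Rag1 alone passed the test (log2 difference -0.89, limma adjusted p = 0.00595).

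Across the family, Slamf7 was much lower and Ly9 moderately higher in the Cre-ERT2 cells, although no other protein-coding gene lies between them in the gene table. The other 6 members differed by between -0.34 and 0.22 on the log2 scale. At a limma adjusted p under 0.05 over all probe sets, 1 member counted as higher and 1 as lower, where 8.1% of all genes passed in either direction (4.38% higher and 3.72% lower). The ERT2 and Cre-ERT2 arrays did not overlap in 6 of 8 members, against 28.3% of all genes. These counts describe the comparison that chose the members, and nothing is read from them. The median difference over the 8 was 0.03, and over all genes 0.02.

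**Figure D1:**
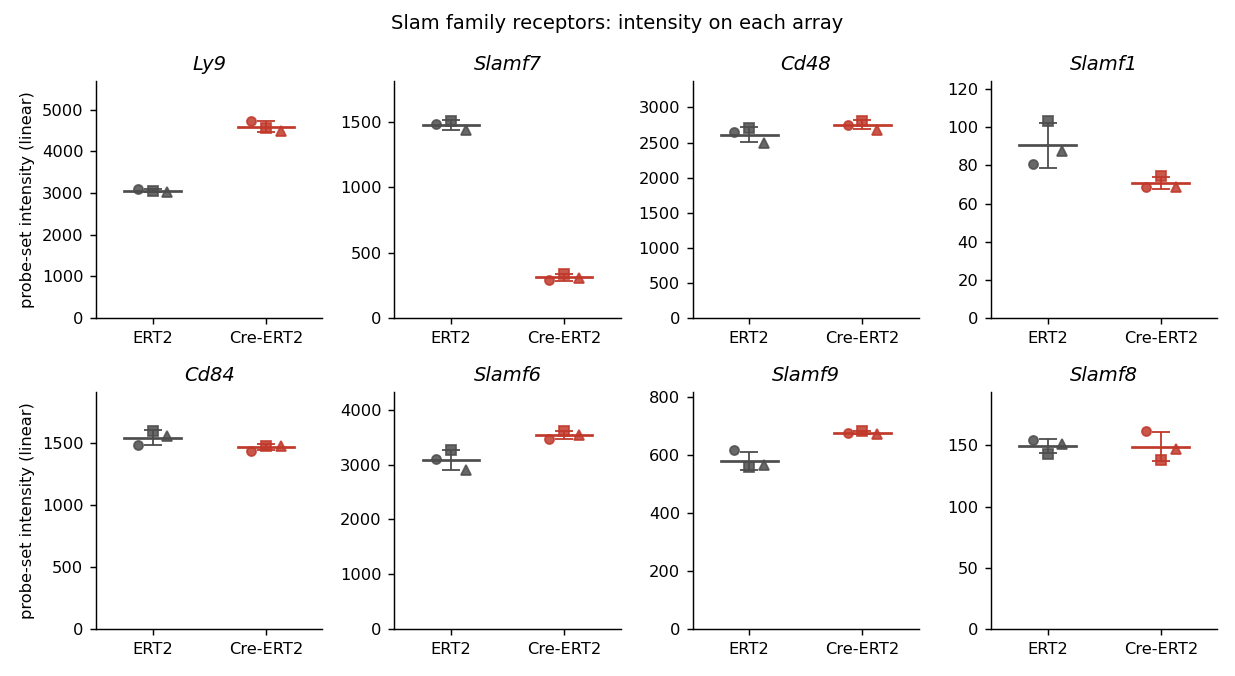
Linear probe-set intensity (vertical axes, starting at 0) of each Slam family receptor on 3 ERT2 arrays (grey) and 3 Cre-ERT2 arrays (red), with symbols for sample numbers 1 (circle), 2 (square) and 3 (triangle), the mean as a line and the SD as a bar. Slamf7 falls from about 1476 to 312 and Ly9 stands at 3057 and 4590, while the arrays of the groups overlap for Cd48 and Slamf8.

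Slamf7 (CRACC or CS1), a self-binding receptor of NK cells, plasma cells and activated B cells and the target of the myeloma antibody elotuzumab, had the largest difference of the family. Its probe set (10360173) read 1485, 1508 and 1435 on the ERT2 arrays and 289, 340 and 306 on the Cre-ERT2 arrays. Every Cre-ERT2 array lay far below every control array, and the gap was many times the spread within a group. Mean intensity was 1476 ± 37.3 (SD, n = 3) in ERT2 and 312 ± 25.6 (SD, n = 3) in Cre-ERT2 cells, which is 21.1% of the control mean. The log2 difference was -2.24 (SE 0.0695), a 4.73-fold fall on the log2(intensity + 1) scale, and it ranked as the 28th largest fall among all genes. Leaving out each array in turn kept it between -2.31 and -2.19. In RNA of a whole culture, fewer cells that express a gene and less RNA per cell cannot be told apart.

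Ly9 (CD229), a self-binding receptor of B and T cells that restrains innate-like lymphocytes, lies directly beside Slamf7 in gene order and went the other way. Its probe set (10360158) read 3091, 3052 and 3028 on the ERT2 arrays and 4736, 4556 and 4479 on the Cre-ERT2 arrays. The 3 controls were tightly grouped and all 3 Cre-ERT2 arrays stood above them. Mean intensity was 3057 ± 32.1 (SD, n = 3) and 4590 ± 132 (SD, n = 3), or 150% of the control mean. The log2 difference was 0.59 (SE 0.0464), the 281st largest rise among all genes, and it stayed between 0.56 and 0.60 when single arrays were left out. The log2 differences of Ly9 and Slamf7 lay 2.83 apart.

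Slamf6 (Ly108), a self-binding receptor of T and B cells that acts through SAP, lay slightly higher in Cre-ERT2 cells. It read 3092, 3261 and 2899 on the ERT2 arrays and 3458, 3607 and 3536 on the Cre-ERT2 arrays. The groups did not overlap, but the 3 controls spread over a range wider than the gap between the groups. Its log2 difference was 0.20 (SE 0.0585), and means were 3084 ± 181 and 3534 ± 74.2 (SD, n = 3 each). Without single arrays it ran from 0.15 to 0.24.

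Slamf9, a receptor known from dendritic cells and macrophages whose short tail lacks the SAP-binding motifs, had a difference of like size. It read 617, 559 and 564 on the ERT2 arrays and 676, 682 and 674 on the Cre-ERT2 arrays. The Cre-ERT2 arrays were nearly equal to each other and all above the controls, of which sample 1 was the highest. Its log2 difference was 0.22 (SE 0.0551), with means of 580 ± 32.0 and 677 ± 4.52 (SD, n = 3 each) and a range without single arrays of 0.20 to 0.27.

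Slamf1 (CD150), the self-binding receptor that gave the family its name, was dim throughout, with every array below the array median. It read 80.7, 103 and 87.3 on the ERT2 arrays and 68.9, 74.7 and 68.8 on the Cre-ERT2 arrays. All Cre-ERT2 values were the lower ones, but ERT2 sample 2 stood well above the other controls. Its log2 difference was -0.34 (SE 0.097), with means of 90.5 ± 11.7 and 70.8 ± 3.37 (SD, n = 3 each). Without ERT2 sample 2 it was -0.24, the smallest of the values with 1 array left out, which reached -0.42. The files give no detection call, so it is not known how much of such a low intensity is background.

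Cd84 (SLAMF5), a self-binding receptor that stabilises contacts of T and B cells, differed little. It read 1484, 1597 and 1560 on the ERT2 arrays and 1441, 1482 and 1482 on the Cre-ERT2 arrays. The groups just failed to meet, with control sample 1 at the upper edge of the Cre-ERT2 arrays. The log2 difference was -0.07 (SE 0.0497).

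Cd48, the lipid-anchored ligand of Cd244a and Cd2, read 2649, 2701 and 2489 on the ERT2 arrays and 2755, 2812 and 2683 on the Cre-ERT2 arrays. The groups overlapped, since the lowest Cre-ERT2 array lay below the highest control. The log2 difference was 0.07 (SE 0.0526).

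Slamf8 (BLAME), a short-tailed receptor of macrophages known to restrain their NADPH oxidase, was dim and overlapped fully. It read 154, 143 and 151 on the ERT2 arrays and 161, 138 and 147 on the Cre-ERT2 arrays. Its log2 difference was -0.01 (SE 0.0704), and its sign changed among the values with 1 array left out (-0.07 to 0.04).

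**Figure D2:**
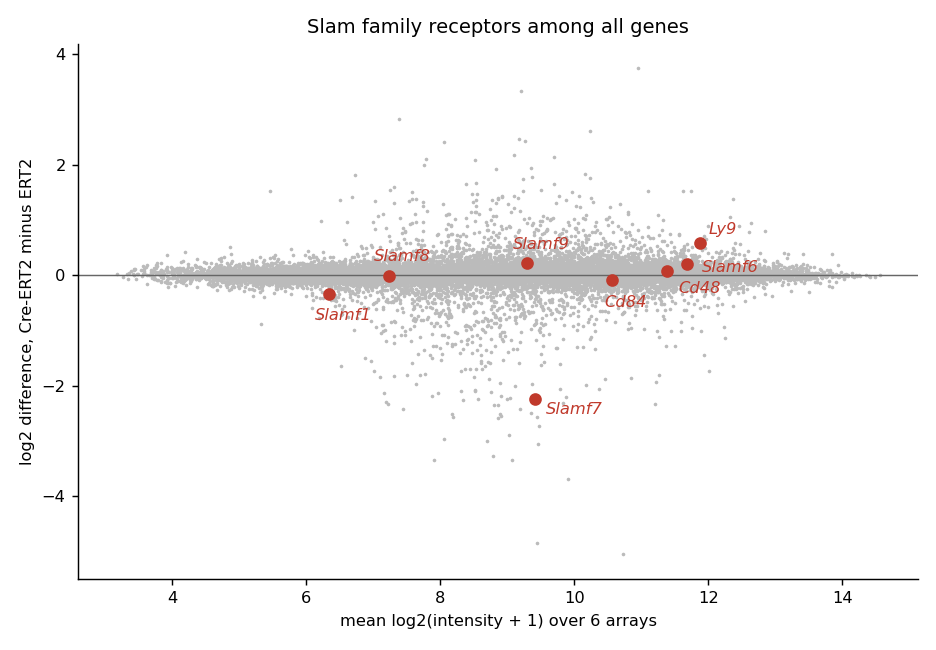
Log2 difference of Cre-ERT2 minus ERT2 cells (vertical axis) against the mean log2(intensity + 1) over 6 arrays (horizontal axis) for 19938 genes in grey, with the Slam family receptors in red. Slamf7 at -2.24 lies far below the main cloud and Ly9 at 0.59 at its upper edge, while the other 6 members lie between -0.34 and 0.22.

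The sequence before the annotated start was examined for the members, because it was not used to choose them. RefSeq promoter entries (GRCm38.p6) were found for 7 of the 8 genes; Ly9 had no entry. Motifs were searched on both strands in the 250 bases before the start: AACAAAG or AACAATG for Sox factors, GAGGAAG for PU.1 and CCCNNGGG for EBF. The 3 sequences shown are that of Slamf7, the member with the largest difference, and those of Slamf1 and Slamf9, the members in which a motif was found, with motif letters in capitals. They lie at chr1:171649000-171649249 (minus strand), chr1:171766882-171767131 (plus strand) and chr1:172475110-172475359 (plus strand).
Slamf7: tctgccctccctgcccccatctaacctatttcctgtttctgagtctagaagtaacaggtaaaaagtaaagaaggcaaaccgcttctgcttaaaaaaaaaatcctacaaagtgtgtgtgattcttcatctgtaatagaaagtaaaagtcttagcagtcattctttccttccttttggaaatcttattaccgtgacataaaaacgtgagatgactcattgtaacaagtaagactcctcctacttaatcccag
Slamf1: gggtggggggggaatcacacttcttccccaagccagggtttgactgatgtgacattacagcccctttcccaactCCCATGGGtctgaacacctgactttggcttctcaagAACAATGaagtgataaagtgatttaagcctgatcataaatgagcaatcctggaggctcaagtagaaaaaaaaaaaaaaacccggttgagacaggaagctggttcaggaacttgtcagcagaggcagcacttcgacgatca
Slamf9: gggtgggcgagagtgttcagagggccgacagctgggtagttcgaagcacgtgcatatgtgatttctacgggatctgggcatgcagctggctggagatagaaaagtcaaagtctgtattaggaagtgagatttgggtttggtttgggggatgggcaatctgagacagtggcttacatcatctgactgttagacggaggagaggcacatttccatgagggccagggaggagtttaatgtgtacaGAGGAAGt
The window of Slamf7 held none of these letters, and neither did those of Slamf6, Slamf8, Cd48 and Cd84. In Slamf1 the Sox letters AACAATG stood 140 to 134 bases before the start and the EBF letters CCCATGGG 176 to 169 bases before it. In Slamf9 the PU.1 letters GAGGAAG stood 8 to 2 bases before the start. Over all 32851 promoter entries, 8.12% held the Sox letters, 10.6% the PU.1 letters and 11.8% the EBF letters. The motifs do not overlap in these windows, a match is not evidence of binding, and genes can have further starts.

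Gene order places the family in 2 groups on the chromosome. From Ly9 to Slamf6 the gene table lists 7 protein-coding genes, 6 of them members, in the order Ly9, Slamf7, Cd48, Slamf1, Cd84 and Slamf6. Slamf9 follows after 14 further genes and Slamf8 after 4 more. In the first group the log2 differences read 0.59, -2.24, 0.07, -0.34, -0.07 and 0.20. The members were chosen for differing responses, so nothing is read from their lack of a common direction.

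The genes around the members were tested in the same fit, since they had no part in choosing them. From 3 genes before Ly9 to 3 after Slamf8 there were 25 other protein-coding genes, of which 23 had a probe set of their own. Of these 23, 1 rose and 0 fell in limma, against 4.38% and 3.72% of all genes. At an unadjusted p under 0.05 limma gave 4 higher and 1 lower, against 12.2% and 7.93% of all genes. The median difference of the 23 was 0.01, against 0.02 over all genes. The riser was Fcrl6, an Fc receptor-like gene that lies next to Slamf8. It read 264, 242 and 230 on the ERT2 arrays and 1365, 1376 and 1351 on the Cre-ERT2 arrays, with no overlap and a very small spread. Its log2 difference was 2.47 (SE 0.0621, limma adjusted p = 2.07e-05), beside -0.01 in Slamf8.

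The remaining 22 neighbours had differences between -0.23 and 0.19. Cd244a (2B4), the Slam receptor for Cd48 that lies next to Ly9 and was not among the 8, read 268, 288 and 276 on the ERT2 arrays and 294, 328 and 307 on the Cre-ERT2 arrays. All Cre-ERT2 arrays were above the controls, but the log2 difference of 0.16 (SE 0.0599) did not pass (limma adjusted p = 0.246). Tagln2, an actin-binding gene close to Slamf9, had the lowest value (log2 difference -0.23, SE 0.0591, limma adjusted p = 0.0899); it passed under 5 of 15 other settings.

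**Figure D3:**
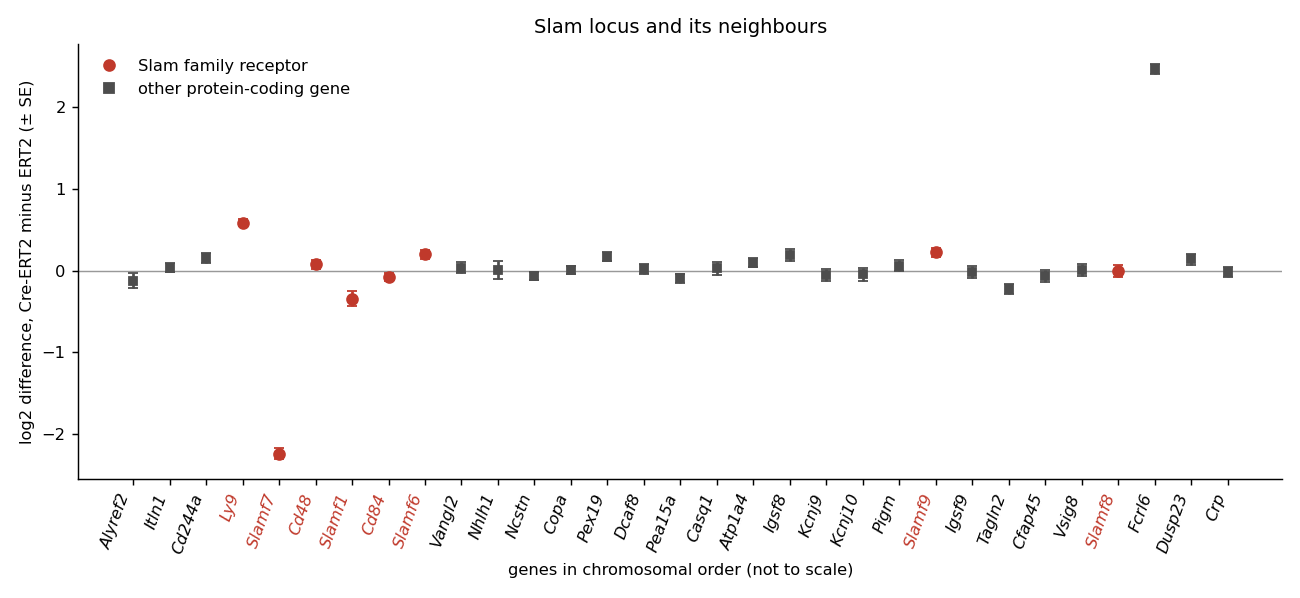
Log2 difference of Cre-ERT2 minus ERT2 cells (points, with limma's SE as bars) for Slam family receptors (red circles) and neighbouring protein-coding genes (grey squares) in chromosomal order, not to scale. Slamf7 at -2.24 and Fcrl6 at 2.47 stand apart, and the other neighbours lie between -0.23 and 0.19.

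Cd2, the T- and B-cell adhesion molecule that gives the wider family its name and binds Cd48, lies outside the locus. It read 2994, 2971 and 2994 on the ERT2 arrays and 2016, 1893 and 1918 on the Cre-ERT2 arrays. It fell with no overlap between the groups (log2 difference -0.62, SE 0.0473, limma adjusted p = 0.000634). Of the receptors for Cd48 measured here, Cd2 was therefore lower, and Cd244a did not pass the test, while Cd48 itself differed by 0.07.

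Among the proteins that act below Slam receptors, the adaptors had low intensities and none passed the test. Sh2d1a, which encodes SAP, averaged 105 ± 2.59 in ERT2 and 97.3 ± 8.20 (SD, n = 3 each) in Cre-ERT2 cells (log2 difference -0.11, SE 0.07, limma adjusted p = 0.543). Sh2d1b1, which encodes EAT-2, averaged 40.7 ± 5.55 and 42.6 ± 1.85 (SD, n = 3 each; log2 difference 0.07, limma adjusted p = 0.821). Its relative Sh2d1b2 averaged 20.6 ± 0.335 and 19.6 ± 0.277 (SD, n = 3 each; log2 difference -0.07, limma adjusted p = 0.539). All 3 were below the array median in every sample, so little can be read from their differences.

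Of 23 signalling partners, 3 rose and 0 fell in limma, against 4.38% and 3.72% of all genes. At an unadjusted p under 0.05 limma gave 7 higher and 1 lower, against 12.2% and 7.93% of all genes. The median difference was 0.06, against 0.02 over all genes. Prkcq, the protein kinase C that SAP and FYN signalling feeds in T cells, rose by 0.34 (SE 0.07, limma adjusted p = 0.0414). Vav1, a guanine nucleotide exchange factor of lymphocyte receptor signalling, rose by 0.27 (SE 0.0514, limma adjusted p = 0.0301). Uvrag, part of the Beclin 1 and Vps34 complex that Slamf1 is known to bind in phagocytes, rose by 0.26 (SE 0.0492, limma adjusted p = 0.0294). These calls are fragile: all 3 ended, leaving 0 of 23, without ERT2 sample 1, ERT2 sample 3 or any 1 of the Cre-ERT2 samples (limma adjusted p from 0.0612 to 0.139).

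The other 20 partners did not pass. They include Fyn, the kinase that SAP brings to the receptors (log2 difference -0.12, SE 0.0676), the phosphatases Ptpn6 (0.15, SE 0.0469), Ptpn11 (0.03, SE 0.0489) and Inpp5d (0.09, SE 0.048), which bind Slam tails when SAP is absent, and Becn1 (0.02, SE 0.0575), which encodes Beclin 1.

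**Figure D4:**
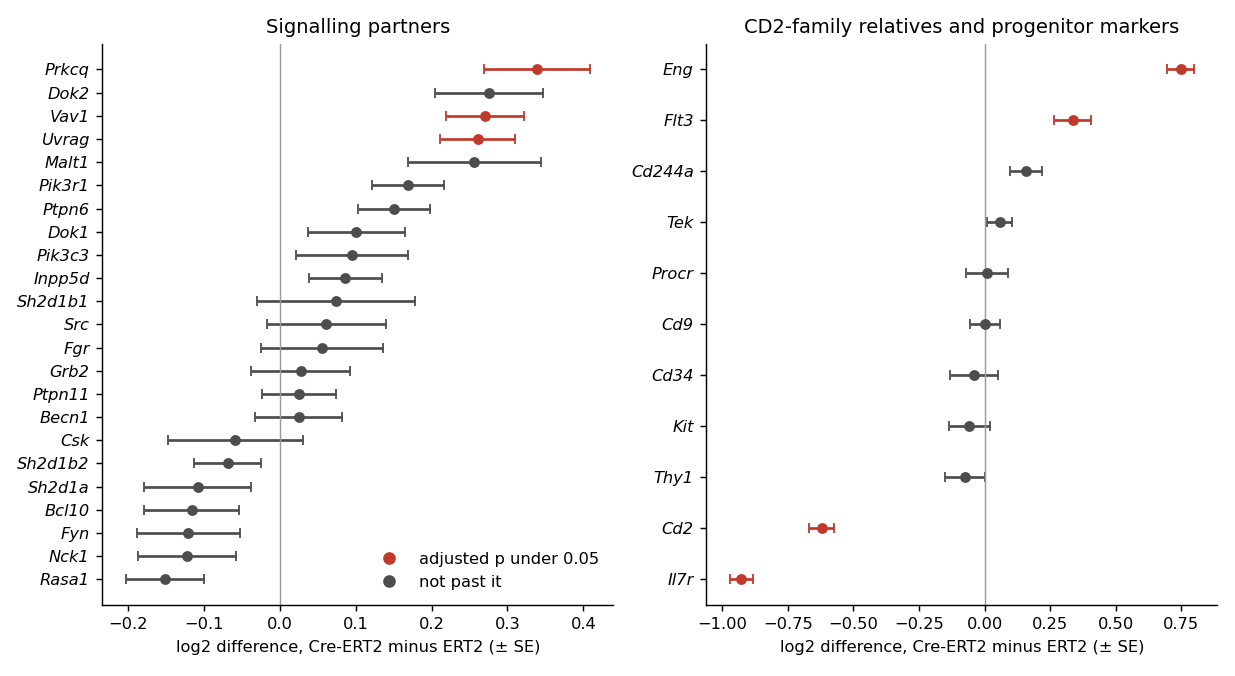
Log2 difference of Cre-ERT2 minus ERT2 cells (horizontal axes; bars are limma's SE) for 23 signalling partners (left) and for CD2-family relatives with stem and progenitor markers (right), in red where the limma adjusted p was under 0.05. Prkcq, Vav1 and Uvrag pass on the left, Eng, Flt3, Cd2 and Il7r on the right.

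Slamf1 and Cd48 serve with other surface proteins to sort stem and progenitor cells, so 10 such genes were set beside them. In limma 2 rose and 1 fell, against 4.38% and 3.72% of all genes, with a median of 0.01 against 0.02 over all genes. Il7r, the interleukin 7 receptor, fell by 0.93 (SE 0.0453, limma adjusted p = 0.000118), and Eng, the TGF-beta co-receptor endoglin, rose by 0.75 (SE 0.0518, limma adjusted p = 0.000428). Flt3, a progenitor receptor kinase, rose by 0.34 (SE 0.07, limma adjusted p = 0.0428), a call that ended without any 1 of the 6 arrays (0.0516 to 0.152). Kit, Cd34, Procr, Tek, Thy1, Cd9 and Cd244a did not pass, the last of them counted among the neighbours too.

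Slam receptors are also carried by other blood cells, whose markers were read on the same arrays. The summed intensity of a marker list is weighted towards its brightest genes. For Lyz2 (myeloid) mean intensity was 351 in ERT2 and 932 in Cre-ERT2 arrays, and for Cd5 (T cell) 385 and 566. For Xbp1 (plasma cell) it was 8161 and 10623, and for Tcf4 (dendritic cell) 2037 and 1892. Counts of these lists stand against 4.38% of all genes higher and 3.72% lower in limma, and 12.2% and 7.93% at an unadjusted p under 0.05. T cell markers had 1 of 11 higher and 0 lower in limma (2 and 1 at an unadjusted p under 0.05), and their summed intensity was 1725 to 1808 in ERT2 and 1857 to 2016 in Cre-ERT2 arrays. The riser was Cd5 (0.56, limma adjusted p = 0.0048), which some B cells carry as well, and 10 of 11 had means below the array median. NK cell markers had 0 of 10 called in limma (0 higher and 1 lower at an unadjusted p under 0.05), all 10 below the array median, with sums of 907 to 931 and 899 to 944.

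Myeloid markers had 1 of 11 higher and 1 lower in limma (2 and 1 at an unadjusted p under 0.05). Of the 11, 9 had means below the array median, and sums were 1892 to 1913 in ERT2 and 2288 to 2503 in Cre-ERT2 arrays. Lyz2, the myeloid lysozyme, rose by 1.40 (limma adjusted p = 0.000654), and the integrin Itgam fell by 0.49 (limma adjusted p = 0.0129), a call that ended without ERT2 sample 1 (0.0574) or Cre-ERT2 sample 2 (0.0558). Dendritic cell markers had 1 of 9 higher, Flt3, and 0 lower in limma (1 and 0 at an unadjusted p under 0.05). Their sums were 3696 to 3932 in ERT2 and 3706 to 3760 in Cre-ERT2 arrays.

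Plasma cells carry Slamf7, and their markers had 3 of 7 higher and 1 lower in limma (4.38% and 3.72% of all genes). At an unadjusted p under 0.05 limma gave 4 higher and 2 lower, against 12.2% and 7.93% of all genes. Sums were 15102 to 16387 in ERT2 and 20037 to 20812 in Cre-ERT2 arrays. Jchain, which joins antibody polymers, rose by 2.15, and Xbp1, a secretory regulator, by 0.38 (limma adjusted p = 6.21e-05 and 0.00702). Mzb1, an endoplasmic reticulum chaperone, rose by 0.35 (limma adjusted p = 0.0412), a call kept only without ERT2 sample 1 when single arrays were left out (0.067 to 0.14 for the other 5), and Sdc1, the plasma-cell syndecan, fell by 0.62 (limma adjusted p = 0.00427). The called markers thus went both ways beside the lower Slamf7, with 3 higher and Sdc1 lower. The part of other cell types in the Slam values was not tested.

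The genes whose profiles over the 6 arrays were most like those of Ly9 and Slamf7 were found by the Euclidean distance between log2 values after each gene's own mean was subtracted. For Ly9 they were Tmem119 (distance 0.0441, log2 difference 0.57), Vat1l (0.0722, 0.58) and Bmyc (0.0777, 0.61). For Slamf7 they were Tle5 (distance 0.146, log2 difference -2.20), Sash3 (0.168, -2.33) and Plxna2 (0.224, -2.18). With 2 groups of 3 arrays, such likeness rests mostly on the difference between the groups.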

How the data were processed

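Total RNA of 6 samples was labelled with biotin for Affymetrix arrays, per the labels' protocols. The authors' deposited intensity values came from RMA (background correction, quantile normalization, probe-set summary), per the submitters' processing notes; they are on a linear scale. Version, build and annotation: not given in the sources used here. Quantile normalization would hide a shift of all genes in 1 direction.

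Values were analysed as log2(intensity + 1), which understates changes of dim probe sets slightly. A gene was read by its single-gene probe set with the highest mean (21789 of 35556 probe sets name 1 gene, 1621 several, 12146 none). Limma 3.58.1 in R 4.3.3 (lmFit, eBayes, no covariates, all 6 samples) was fitted over all 35556 probe sets with Benjamini-Hochberg adjustment and a two-sided threshold of 0.05. Simulated data held 35556 probe sets, with 50 changed at each size. There the call recovered 2% of log2 changes of 0.25, 44% of 0.5, 78% of 1 and 96% of 2. Of the simulated calls, 5.17% were false. A gene that did not pass can therefore still differ by a small amount. Fewer probe sets were changed in the simulation than passed in the real data (1143 higher and 1009 lower). The adjusted threshold was therefore stricter in the simulation, and recovery in the real data may be higher. Errors of log2 differences are limma's. Gene order came from a RefSeq gene table (GRCm38.p6).

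The members and lists were chosen with earlier results of these data known. Named genes were the members, Sox4, at most 6 called genes per list, the Sh2d1 adaptors and the 3 nearest profiles; other names (Cd244a, Tagln2, Slam effectors) were chosen after their values were seen. Protein sequences were not used here, so tail motifs were not counted. Alternatives were other normalizations (median centring, quantile, cyclic loess), eBayes with a trend or robust, the probe sets brighter than the median, a pseudocount of 16, the replicate number as a block, estimated array weights, averaging all probe sets of a gene and each array left out.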

Additional observations from a re-analysis of the deposited data

How the results depend on the processing

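The gap between Ly9 and Slamf7 stayed between 2.75 and 2.90 under every alternative run, and no member moved by more than its spread between samples. Part of this was fixed in advance. An intensity trend, robust eBayes, the brighter probe sets, the replicate block and averaging probe sets leave these differences unchanged by construction. Only the other settings could move them. Estimated array weights raised the called probe sets from 1143 to 2415 higher and from 1009 to 1612 lower; leaving out single arrays gave 606 to 1319 higher and 654 to 883 lower. Risen signalling partners numbered 5 with array weights or among probe sets brighter than the median (fewer probe sets tested), 0 with the replicate block and 0 to 3 without single arrays. Tagln2 was the 1 fallen neighbour under a further quantile normalization, cyclic loess, an intensity trend, the brighter probe sets and array weights. Risen progenitor markers numbered 1 under median centring, cyclic loess and without any single array. Sh2d1b1 changed sign without ERT2 replicate 2 (-0.041; its values without single arrays ran from -0.041 to 0.14). The cause was not tested. Same-numbered samples deviated with correlations of 0.205, 0.344 and -0.049. ERT2 samples 1 and 2 correlated best with the Cre-ERT2 sample of their own number, and ERT2 sample 3 with number 1. The numbers were not taken as pairs because no label states a pairing. Whether some numbers share a batch was not tested. The replicate block gave 959 higher and 877 lower probe sets, left the calls of Fcrl6, Cd2 and Sox4 (log2 difference -1.31) in place and ended those of Prkcq, Vav1, Uvrag and Mzb1 (limma adjusted p from 0.0542 to 0.0769). Signal over background is not given in the files, which limits what the dim members Slamf1 and Slamf8 and the Sh2d1 adaptors can show.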
